A study of Mus musculus with 6 samples.

Results

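The nuclear pore and nuclear transport receptor genes of the mouse egg were followed here by a rule on gene symbols, which took every gene of the deposited expression table whose symbol begins with *Nup* (before a digit or the letter l), *Kpna*, *Kpnb*, *Ipo* (before a digit), *Xpo* or *Tnpo*. The rule found 45 genes of 15707, of which 22 were classed by symbol as pore proteins and 23 as transport receptors. One of the pore entries, *Nup62-il4i1*, is a read-through model that joins *Nup62* to its neighbour. Of the 45 genes, 41 had an average level over both groups of at least 1 FPKM (read pairs normalized for transcript length and sequencing depth) and are called measured, as were 10012 genes of the whole table. The measured members were 21 pore proteins and 20 receptors.

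The study asked how the loss of BTG4, a protein that forms a complex with the CAF1 deadenylase, alters polyadenylated RNA in oocytes. *Btg4*-depleted oocytes had been injected with siRNAs against *Btg4*, and control oocytes had been injected with a control siRNA (called Scr in the labels). Both groups were follicle oocytes of (C57BL × CBA) F1 females aged 10 to 12 days, were grown in culture for 8 to 10 days and were matured to metaphase II, and each group had 3 libraries of 50 oocytes. Each library was made from about 10 ng of RNA by priming cDNA on the poly(A) tail, with inserts of about 200 bases. Depletion was by siRNA in cultured oocytes and not by a mutation. More RNA molecules and longer tails on the same molecules cannot be told apart in such libraries, nor can fewer cells of a type and less RNA per cell.

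Depth and the state of the groups were checked first. The table gives the mean of each group and not the single libraries, so no value below has an SD and no difference was tested. From the mean normalized counts that the authors list for 320 genes, a library of 7.82 M fragments was estimated (6.92 to 8.12 M between the 5th and 95th percentiles of genes), which makes 1 FPKM of a transcript of 2 kilobases about 15.6 fragments. Fragments given below are estimates per library on that basis and cover counting only. *Btg4* was at 39.3 FPKM in *Btg4*-depleted oocytes and at 1766 FPKM in control oocytes, or 2.22% of the control level. All 9 oocyte markers were measured, with summed levels of 12856 and 13359 FPKM in *Btg4*-depleted and control oocytes. Of these, *Zp3* (3766 and 1398 FPKM) and *Zp2* (1068 and 551 FPKM) were at least 2-fold higher and *Oosp1* (464 and 1184 FPKM) at least 2-fold lower in *Btg4*-depleted than in control oocytes. Of 12 granulosa markers 7 were measured (3 at least 2-fold higher and 1 at least 2-fold lower in *Btg4*-depleted oocytes), with summed levels of 42.4 and 37.8 FPKM in *Btg4*-depleted and control oocytes and a median log2 ratio of 0.64. The higher granulosa markers were *Gja1* (4.33 FPKM in *Btg4*-depleted and 0.183 FPKM in control oocytes), *Hsd3b1* (5.59 and 2.15 FPKM) and *Inhba* (9.24 and 4.28 FPKM), the lower one was *Cyp19a1* (5.87 and 14.8 FPKM), and *Has2* was near the lowest listed value in both groups (0.01 and 0.0433 FPKM). *Gja1* reached the limit for measured genes only through the *Btg4*-depleted group. The part of granulosa RNA in the results below was not tested.

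The nuclear pore is a channel through the nuclear envelope, built from many copies of proteins called nucleoporins. A Y-shaped scaffold complex on each face and an inner ring hold a mesh of flexible proteins rich in phenylalanine and glycine, which keeps large molecules out. Importins and exportins carry cargo through this mesh. Importin alpha binds the classical import signal and couples it to importin beta, and the small GTPase Ran, loaded with GTP in the nucleus, releases import cargo there and holds export cargo on exportins. An egg at metaphase II has no nuclear envelope. In dividing cells without one, Y-complex proteins are found at kinetochores and importins with Ran take part in spindle assembly, and pores are rebuilt when nuclei form again.

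The ends of the transcripts are shown first, because these libraries were primed on poly(A) and because tail length in oocytes is set in part by short sequences near the 3′ end. The cytoplasmic polyadenylation element (CPE), the site that CPEB proteins bind, was searched as TTTTAT or TTTTAAT in the last 150 bases of the 3′ UTR, and the signal for cleavage and polyadenylation as AATAAA or ATTAAA in its last 40 bases, both on the strand of the mRNA only. The last letters of TTTTAAT can also begin AATAAA. The windows below stand for members with a CPE and for members without one that were 2-fold or more above control after depletion. Capitals mark the CPE in the first 5 and the cleavage signal in the last 3, in each case the match nearest the transcript end. The *Kpna2* window also holds AATAAA, left in small letters.
Nup62: cagtcatgtctaTTTTATttctctgcactc
Nup88: gtttgaataaatTTTTATtcaaaaatttga
Ipo8: aaatgcaggaacTTTTATgaatgtactgta
Ipo5: tacaaaaatgagTTTTATgcataaatcaga
Kpna7: gtggcaaacattTTTTATcagccgagggat
Kpna2: ctgtaaataaagATTAAAgttccattcttt
Nup133: ctgcattgccttAATAAAaacgaggttttc
Ipo9: ccctgaggacggAATAAAaagtgcatttct

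All 8 windows lie in the 3′ UTR of the last exon and were read from GENCODE M21 transcripts on GRCm38, not from the build of the authors' alignment. The *Nup62* window is chr7:44830710-44830739 on the plus strand (exon 2 of the transcript used), and its CPE ends 77 bases before the transcript end. The *Nup88* window is chr11:70943072-70943101 on the minus strand (exon 17, 12 bases from the end). The *Ipo8* window is chr6:148770716-148770745 on the minus strand (exon 25, 45 bases), and that of *Ipo5* is chr14:120947941-120947970 on the plus strand (exon 26, 41 bases). The *Kpna7* window is chr5:144983854-144983883 on the minus strand (exon 13), with its CPE 139 bases from the end and so close to the limit of the search. The other 3 windows are all on the minus strand. They are chr11:106988636-106988665 for *Kpna2* (exon 11), chr8:123897127-123897156 for *Nup133* (exon 26) and chr1:135382320-135382349 for *Ipo9* (exon 24), with the marked cleavage signal 16 to 20 bases from the end.

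Levels were compared after scaling the group means to each other with a trimmed mean of ratios (TMM), as log2 ratios of FPKM + 1 with the *Btg4*-depleted level on top. Scaling added 0.16 to the log2 ratio of levels and moved the median of all measured genes to -0.02, against -0.15 without scaling, so each ratio is relative to the typical transcript. The pseudocount of 1 understates the difference of low genes. Folds between the groups are of scaled FPKM + 1 unless they are called deposited. Over all measured genes, 19.5% were at least 2-fold higher and 11.4% at least 2-fold lower in *Btg4*-depleted oocytes (16.2% and 16.8% without scaling). Of the 41 measured members 7 were at least 2-fold higher (17.1%), 3 were at least 2-fold lower (7.32%) and 31 lay between, which is near the shares over all genes in both directions. The higher ones were *Nup133*, *Ipo9*, *Ipo13*, *Kpna2*, *Nup43*, *Xpo1* and *Nup155*, and the lower ones were *Nupl2*, *Nup107* and *Ipo5*. The median log2 ratio of the members was -0.08, and their middle values ran from -0.69 (25th percentile) up to 0.46 (75th percentile), against -0.66 and 0.77 over all measured genes.

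**Figure D1:**
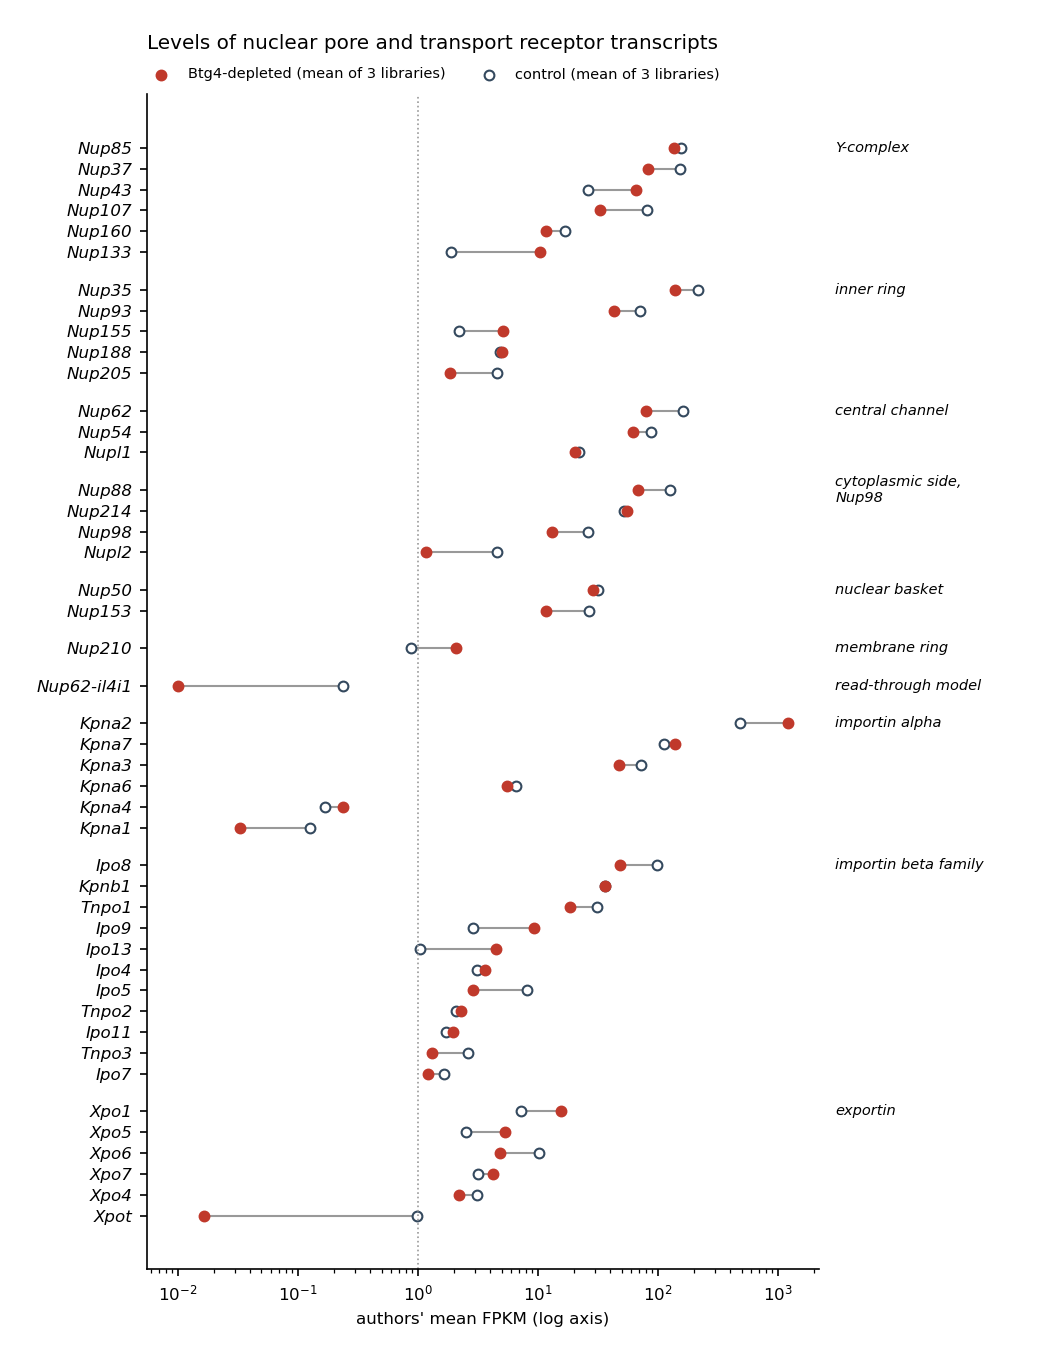
Authors' mean FPKM (log axis) of the 45 member genes in *Btg4*-depleted oocytes (filled points) and control oocytes (open points), by subcomplex or receptor class, with a grey line joining the 2 group means and a dotted line at 1 FPKM. *Kpna2* lies far to the right of the other members in both groups, *Nup133* has the longest line among the measured members, and 4 members (*Nup62-il4i1*, *Kpna1*, *Kpna4* and *Xpot*) average less than 1 FPKM.

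The members of the Y-complex, the outer scaffold of the pore, did not share a direction. *Nup133*, a stalk subunit, was at 10.5 FPKM in *Btg4*-depleted oocytes and at 1.88 FPKM in control oocytes, on an estimated 476 and 85.6 fragments. As deposited these levels were 5.56-fold apart, and as scaled FPKM + 1 *Nup133* was 4.35-fold higher (log2 ratio 2.12). This was the highest ratio of the 41 members. *Nup107*, its direct partner in the stalk, lay on the other side, at 32.9 FPKM in *Btg4*-depleted and 80.6 FPKM in control oocytes (log2 ratio -1.11). *Nup43*, a small beta-propeller subunit of one arm, was at 65.6 and 26.1 FPKM in *Btg4*-depleted and control oocytes, or 2.75-fold higher. *Nup37*, the beta-propeller subunit beside *Nup160* with a transcript of nearly the same length (1282 bases, against 1290 bases for *Nup43*), was at 82.4 FPKM in *Btg4*-depleted and 153 FPKM in control oocytes (log2 ratio -0.72). The remaining subunits stood closer to the typical transcript. *Nup160* was at 11.7 and 16.8 FPKM in *Btg4*-depleted and control oocytes (log2 ratio -0.34), and *Nup85* was at 137 and 155 FPKM (log2 ratio -0.01).

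FPKM is a value per length, so levels were set side by side within the complex. Differences in tail length between genes, and in the lengths used, are not removed by this. In *Btg4*-depleted oocytes the highest subunit (*Nup85*) was 13.1 times the lowest (*Nup133*), and in control oocytes the same pair was 82.2-fold apart. The subunits of the complex that carry other symbols, taken from a list of known pore proteins, gave 3 further values. *Sec13*, which also builds vesicle coats, was at 124 FPKM in *Btg4*-depleted and 248 FPKM in control oocytes (log2 ratio -0.82). *Ahctf1*, which seeds pores on chromatin after mitosis, was at 11.5 and 23.6 FPKM (log2 ratio -0.81), and *Seh1l* was at 20.5 and 26.8 FPKM (log2 ratio -0.22). Over these 9 subunits the median log2 ratio was -0.34. At least 2-fold higher were 2 (22.2%, against 19.5% over all measured genes), and 1 was at least 2-fold lower (11.1%, against 11.4%).

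The inner ring, which anchors the central channel, held one member past 2-fold. *Nup155*, a subunit close to the membrane, was at 5.13 FPKM in *Btg4*-depleted oocytes and at 2.21 FPKM in control oocytes (log2 ratio 1.06), just past the limit, and without scaling or with quantile normalization it was under it (0.93 and 0.95). *Nup188* and *Nup205*, related scaffold proteins that each bind NUP93, gave unlike values. *Nup188* was at 5.08 and 4.87 FPKM in *Btg4*-depleted and control oocytes (log2 ratio 0.19), and *Nup205* was at 1.85 and 4.57 FPKM (log2 ratio -0.84). *Nup93*, the linker of the ring, was at 43.1 FPKM in *Btg4*-depleted and 71.3 FPKM in control oocytes (log2 ratio -0.55). *Nup35*, a membrane-binding subunit, was the most abundant of the pore members taken by the symbol rule in both groups, at 139 FPKM in *Btg4*-depleted and 216 FPKM in control oocytes (log2 ratio -0.47). Of the 100-base stretches of the *Nup35* transcript 72.2% also occur in the annotated gene *Gm4353*, so its reads may be split between them. The length deposited for *Nup35* (2733 bases) is also unlike that of the matched transcript (1559 bases). Its level and first place are therefore uncertain, and *Nup85* was close to it in *Btg4*-depleted oocytes, at 137 FPKM. From the lowest ring member to the highest, levels spanned 74.8-fold in *Btg4*-depleted and 97.4-fold in control oocytes.

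The 3 proteins of the central channel, whose flexible repeats form the barrier itself, had closer levels, with spans of 3.94-fold in *Btg4*-depleted and 7.40-fold in control oocytes. *Nup62* was at 79.7 FPKM in *Btg4*-depleted oocytes and at 163 FPKM in control oocytes (log2 ratio -0.86), *Nup54* was at 61.6 and 87.8 FPKM (-0.34), and *Nupl1*, which encodes the NUP58 and NUP45 isoforms, was at 20.2 and 22.03 FPKM (0.04). None passed 2-fold. The read-through model *Nup62-il4i1* was at 0.01 FPKM in *Btg4*-depleted oocytes and 0.24 FPKM in control oocytes. The value of 0.01 FPKM is the lowest in the table and was given to 1651 genes in *Btg4*-depleted oocytes and 694 genes in control oocytes.

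On the cytoplasmic side, where exported mRNA is stripped of its transport proteins, ratios were mostly below 0. *Nupl2*, which docks the helicase activator GLE1, was at 1.18 FPKM in *Btg4*-depleted and 4.57 FPKM in control oocytes (log2 ratio -1.24, the lowest of the members) on an estimated 26.9 and 103.9 fragments. *Nup98*, a mobile nucleoporin found on both faces, was at 13.1 and 26.3 FPKM in *Btg4*-depleted and control oocytes (log2 ratio -0.80). *Nup88* was at 69.1 and 126 FPKM (log2 ratio -0.69). Its partner *Nup214* did not share this, at 55.7 FPKM in *Btg4*-depleted and 51.9 FPKM in control oocytes (log2 ratio 0.26). *Ranbp2*, the large cytoplasmic filament protein that the symbol rule does not take, was at 1.69 and 6.57 FPKM in *Btg4*-depleted and control oocytes (log2 ratio -1.37). Over the 8 measured genes of the full list for this side the median log2 ratio was -0.67. Of these, 2 were at least 2-fold lower (25%, against 11.4% over all measured genes) and none was at least 2-fold higher (19.5%).

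The nuclear basket and the membrane ring gave 3 further members. *Nup153*, which ties the basket to the scaffold and the lamina, was at 11.8 FPKM in *Btg4*-depleted and 26.9 FPKM in control oocytes (log2 ratio -0.96), close to 2-fold lower. *Nup50*, which helps to free importin alpha from its cargo, was at 29.0 and 31.9 FPKM (log2 ratio 0.02). *Nup210*, a membrane protein, was at 2.10 FPKM in *Btg4*-depleted oocytes and at 0.873 FPKM in control oocytes (log2 ratio 0.82), so that it reached the limit for measured genes through the *Btg4*-depleted group. Another membrane nucleoporin outside the rule, *Pom121*, was at 12.5 and 41.2 FPKM in *Btg4*-depleted and control oocytes (log2 ratio -1.49). Over the 3 measured genes of the full list of membrane nucleoporins the median log2 ratio was -0.33, and *Pom121* was the only one past 2-fold.

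Among the receptors, importin alpha transcripts were dominated by *Kpna2*, the most abundant member of all. *Kpna2* was at 1226 FPKM in *Btg4*-depleted oocytes and at 484 FPKM in control oocytes, 2.83-fold higher after scaling, and stood at rank 25 of the table in *Btg4*-depleted and rank 93 in control oocytes. *Kpna7*, an importin alpha known mainly from oocytes and early embryos, was at 140 FPKM in *Btg4*-depleted and 113 FPKM in control oocytes (log2 ratio 0.47). *Kpna3* was at 48.0 and 71.8 FPKM (log2 ratio -0.41), and *Kpna6* was at 5.51 and 6.58 FPKM (log2 ratio -0.08). The other alpha importins were low in both groups, with *Kpna4* at 0.237 FPKM in *Btg4*-depleted and 0.17 FPKM in control oocytes and *Kpna1* at 0.0333 and 0.127 FPKM.

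As a share of all importin alpha transcripts, *Kpna2* made up 86.3% in *Btg4*-depleted oocytes and 71.6% in control oocytes. *Kpna7* made up 9.87% and 16.7%, and *Kpna3* 3.38% and 10.6%. The sum of the family was 1420 FPKM in *Btg4*-depleted and 676 FPKM in control oocytes. *Kpna2* also shares 88.2% of its 100-base stretches with 5 annotated genes (*Gm10184*, *Gm10259*, *Gm12919*, *Gm13310* and *Gm16436*), so its level is uncertain by whatever the authors' counting assigned to these.

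**Figure D2:**
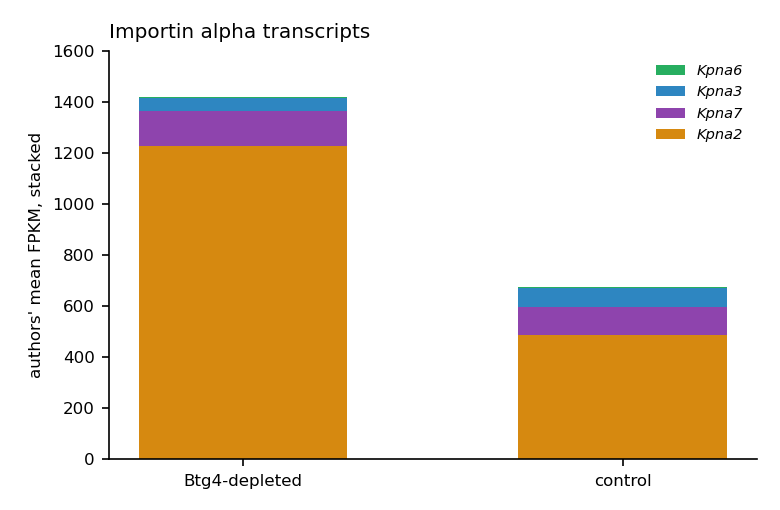
Stacked bars of the authors' mean FPKM (linear axis starting at 0) of importin alpha transcripts in *Btg4*-depleted oocytes (left) and control oocytes (right). The *Kpna2* segment is 1226 FPKM in *Btg4*-depleted and 484 FPKM in control oocytes, and *Kpna6*, under 7 FPKM in both groups, is too thin to see.

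Importin beta and the related receptors that bind cargo directly spread to both sides. *Kpnb1*, importin beta itself, was at 36.4 FPKM in *Btg4*-depleted and 36.6 FPKM in control oocytes (log2 ratio 0.15), so that the receptor of the classical pathway stayed near the typical transcript beside the higher value of *Kpna2*. *Ipo9*, which carries histones and actin, was at 9.28 FPKM in *Btg4*-depleted oocytes and at 2.89 FPKM in control oocytes (2.90-fold higher), on an estimated 453 and 141 fragments. *Ipo13*, a receptor that works in both directions, was at 4.48 and 1.05 FPKM (2.88-fold higher, or 4.27-fold as deposited) on an estimated 126 and 29.5 fragments. *Ipo5*, an importer of ribosomal proteins and histones, lay on the other side, at 2.90 FPKM in *Btg4*-depleted and 8.16 FPKM in control oocytes (log2 ratio -1.10), and was the one receptor at least 2-fold lower.

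Within pairs of related receptors, one gene carried most of the transcript in both groups. *Ipo8* was at 48.3 FPKM in *Btg4*-depleted and 99.0 FPKM in control oocytes (log2 ratio -0.86), while its close relative *Ipo7* was at 1.23 and 1.65 FPKM (log2 ratio -0.15). *Tnpo1*, transportin, which imports many RNA-binding proteins, was at 18.6 FPKM in *Btg4*-depleted and 31.4 FPKM in control oocytes (log2 ratio -0.57), and its relative *Tnpo2* was at 2.28 and 2.09 FPKM (log2 ratio 0.20). For *Ipo7* the length in the table equals the coding length of the matched transcript, which raises its FPKM if reads in its UTRs were counted. The length deposited for *Tnpo1* (5391 bases) is unlike that of the matched transcript (2503 bases), so its level is uncertain. *Tnpo3*, the importer of splicing factors rich in serine and arginine, was at 1.31 and 2.63 FPKM in *Btg4*-depleted and control oocytes (log2 ratio -0.55), *Ipo4* was at 3.65 and 3.11 FPKM (0.31) and *Ipo11* was at 1.97 and 1.72 FPKM (0.23).

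Of the exportins, *Xpo1*, the exporter of proteins with a leucine-rich export signal, was the most abundant in *Btg4*-depleted oocytes, at 15.7 FPKM against 7.28 FPKM in control oocytes (log2 ratio 1.16). *Xpo6*, the exporter of actin, was the most abundant in control oocytes and lower in *Btg4*-depleted oocytes, at 4.85 and 10.3 FPKM in *Btg4*-depleted and control oocytes (log2 ratio -0.81). *Xpo5*, the exporter of microRNA precursors, was at 5.35 and 2.52 FPKM (log2 ratio 0.98), just inside 2-fold with the pseudocount of 1 and 2.12-fold higher as deposited. The others were nearer the typical transcript, with *Xpo7* at 4.27 FPKM in *Btg4*-depleted and 3.21 FPKM in control oocytes (0.46) and *Xpo4*, whose length in the table is also a coding length, at 2.23 and 3.10 FPKM (-0.22). *Xpot*, the exporter of tRNA, averaged under 1 FPKM over both groups and was at 0.0167 FPKM in *Btg4*-depleted oocytes, below the 0.064 FPKM that 3 fragments would give, and at 0.983 FPKM in control oocytes, an estimated 46.1 fragments. *Cse1l*, the exportin that returns importin alpha to the cytoplasm and that the symbol rule does not take, was at 13.8 FPKM in *Btg4*-depleted and 4.42 FPKM in control oocytes (3.01-fold higher). Over the 7 measured genes of the full exportin list the median log2 ratio was 0.46. Of these, 2 were at least 2-fold higher (28.6%, against 19.5% over all measured genes) and none was at least 2-fold lower (11.4%).

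Pore proteins and receptors were then set against each other. The median log2 ratio of the 21 pore proteins was -0.34 and that of the 20 receptors was 0.18, a difference of -0.52. Of the pore proteins 13 lay below 0 and 8 above it, and of the receptors 9 below and 11 above. The spread within each class (SD 0.88 over pore proteins and 0.82 over receptors, across genes) was larger than the difference between their medians. The 2-fold counts were 3 pore proteins higher (14.3%) and 2 lower (9.52%), and 4 receptors higher (20%) and 1 lower (5%). Over all measured genes the shares were 19.5% higher and 11.4% lower. Among the 27 members that averaged at least 5 FPKM the receptors' median turned to -0.06 and the difference shrank to -0.33, so the positive median of the receptors rested on those of low level.

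**Figure D3:**
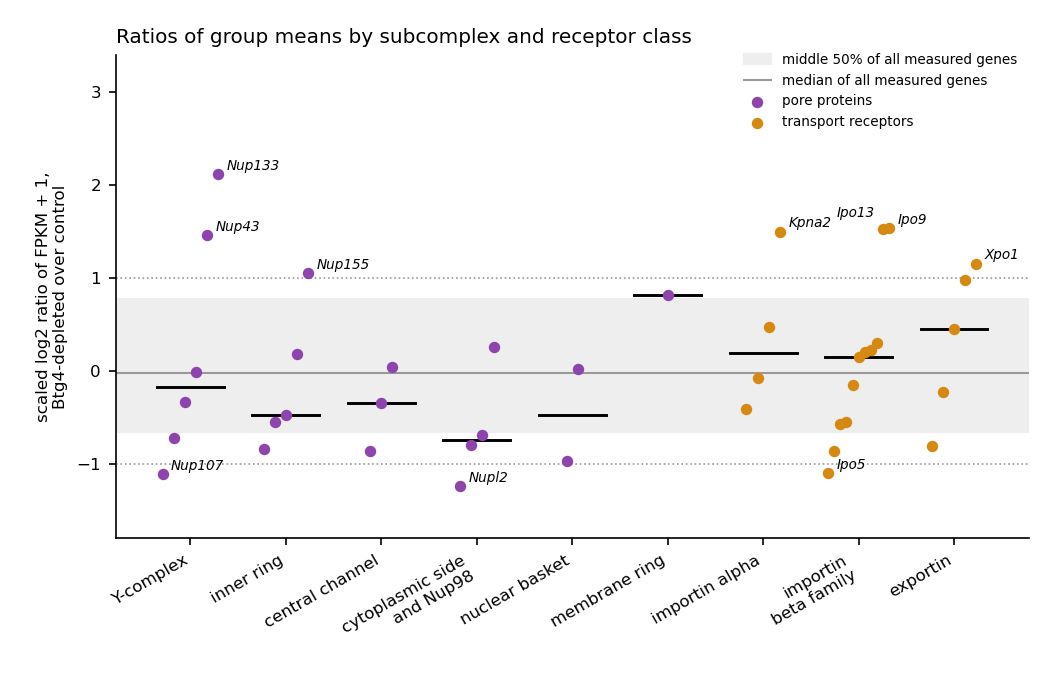
Scaled log2 ratio of FPKM + 1, dividing *Btg4*-depleted by control levels, of each measured member, by pore subcomplex (purple) and receptor class (orange), with black bars at the median of each class, dotted lines at 2-fold and a grey band over the middle 50% of all measured genes (-0.66 to 0.77). The medians of the 5 subcomplexes with more than 1 measured member lie between -0.75 and -0.17, and those of the 3 receptor classes between 0.15 and 0.46, with points on both sides of 0 in each of these classes.

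In the main setting, every pore subcomplex with more than 1 measured member had a median below 0 (Y-complex -0.17, central channel -0.34, inner ring and basket -0.47 each, cytoplasmic side with *Nup98* -0.75). Every receptor class had one above 0 in that setting (importin beta family 0.15, importin alpha 0.20, exportins 0.46). These classes held 2 to 11 genes and divide the same genes as the contrast of pore proteins with receptors. The importin beta median is the value of *Kpnb1*, which came to -0.007 with no scaling, so that this class median was then just below 0. At a minimum of 5 FPKM the class kept *Ipo5* (-1.08), *Ipo8* (-0.84), *Tnpo1* (-0.55), *Kpnb1* (0.17) and *Ipo9* (1.56). Its median was then the value of *Tnpo1*, so the positive median of this class rested on genes of low level. Adding 10 pore proteins and 2 exportins that carry other symbols, an alternative chosen after seeing the data, gave a median of -0.47 for pore proteins and a difference of -0.68. In summed levels, pore transcripts made up 878 FPKM in *Btg4*-depleted and 1273 FPKM in control oocytes (0.205% and 0.311% of the table). Receptor transcripts made up 1582 FPKM in *Btg4*-depleted and 894 FPKM in control oocytes (0.370% and 0.219%). Without *Kpna2* the receptor sums were 357 and 409 FPKM in *Btg4*-depleted and control oocytes, so the larger sum after depletion rested on that gene.

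Abundance split the classes further. At a mean of at least 20 FPKM, 8 of 12 pore proteins lay below 0 (median -0.41) and the 6 receptors had a median of -0.13. Below 20 FPKM the median of 9 pore proteins was -0.34 and that of 14 receptors was 0.22. Over all measured genes the medians were -0.13 at 20 FPKM or more and 0.03 below it.

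Transcript length moved with the ratio over the whole table, with a Spearman correlation of -0.33 over the 10012 genes, which share the same 6 libraries. The 41 members did not repeat this, at 0.16 (0.22 over pore proteins and -0.14 over receptors). Pore transcripts had a median length of 3092 bases and receptor transcripts of 4388 bases, against 2684 bases over all measured genes. Among the higher members, *Nup43* (1290 bases) and *Kpna2* (2071 bases) were short, but *Nup133* (5808 bases), *Ipo9* (6236 bases) and *Nup155* (6420 bases) were long. With the trend on length removed the difference between the medians was -0.78, *Nup43* came to 0.98 and *Ipo5* to -0.85, both inside 2-fold. In the same setting *Nup37* came to -1.21, *Nup210* to 1.29, *Xpo7* to 1.11 and *Xpo5* to 1.10, all past 2-fold.

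**Figure D4:**
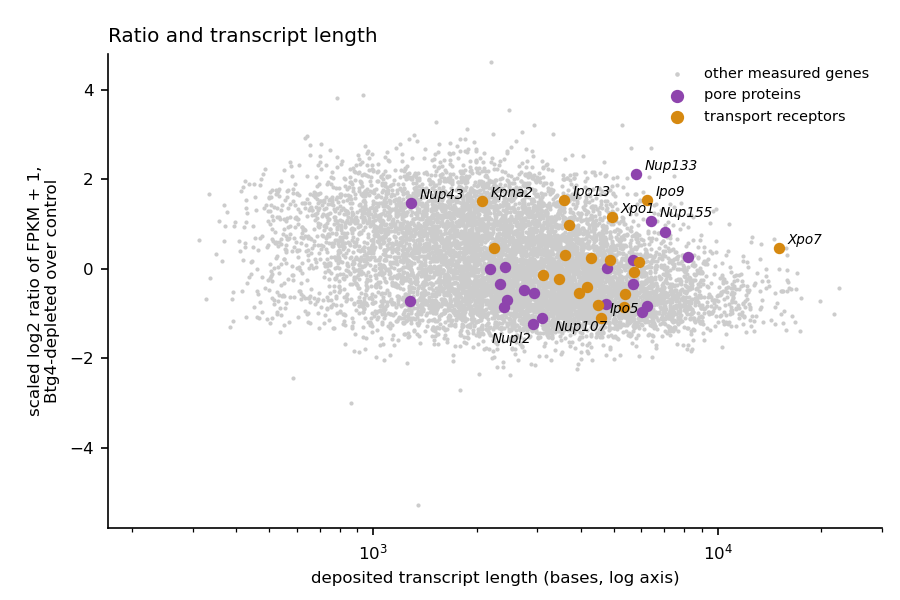
Scaled log2 ratio of FPKM + 1, dividing *Btg4*-depleted by control levels, against the deposited transcript length in bases (log axis) for all measured genes (grey), pore proteins (purple) and transport receptors (orange), with the members past 2-fold and *Xpo7* named. The grey cloud falls towards long transcripts, while *Nup133*, *Ipo9* and *Nup155*, of 5808 to 6420 bases, lie above 1; the lowest grey point, at -5.29, is *Btg4*.

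Members with a CPE in the last 150 bases of the 3′ UTR had lower ratios than those without. A 3′ UTR of at least 150 bases was available for 36 of the 41 measured members, and 11 of these held a CPE (30.6%, against 26.5% of 8606 measured genes). These were *Nup35*, *Nup54*, *Nup62*, *Nup88*, *Nup98*, *Nup205*, *Ipo5*, *Ipo7*, *Ipo8*, *Kpna7* and *Kpnb1*. Their median log2 ratio was -0.69, 9 of 11 lay below 0, none was at least 2-fold higher and 1 (*Ipo5*) was at least 2-fold lower. All 6 pore proteins among them lay below 0, and *Kpna7* and *Kpnb1* were the 2 above it. The 25 members without a CPE had a median of 0.19, with 10 below 0, 5 at least 2-fold higher and 2 at least 2-fold lower.

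The same split over all measured genes gave a median of -0.42 for the 2283 genes with a CPE and 0.04 for the 6323 without. Of the genes with a CPE 9.24% were at least 2-fold higher and 16.9% at least 2-fold lower, and of those without 20.6% and 10.3%. The members therefore stood in the same order as the table as a whole, and nothing particular to them was tested. Where only transcripts within 5% of the deposited length were used, the medians were -0.77 for 8 members with a CPE and 0.02 for 21 without. A cleavage signal was found in the last 40 bases of 20 of 21 pore transcripts and of 12 of 18 receptor transcripts, against 77.3% of all measured genes with such a UTR. A match to these letters is a description and not evidence that the site is used.

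**Figure D5:**
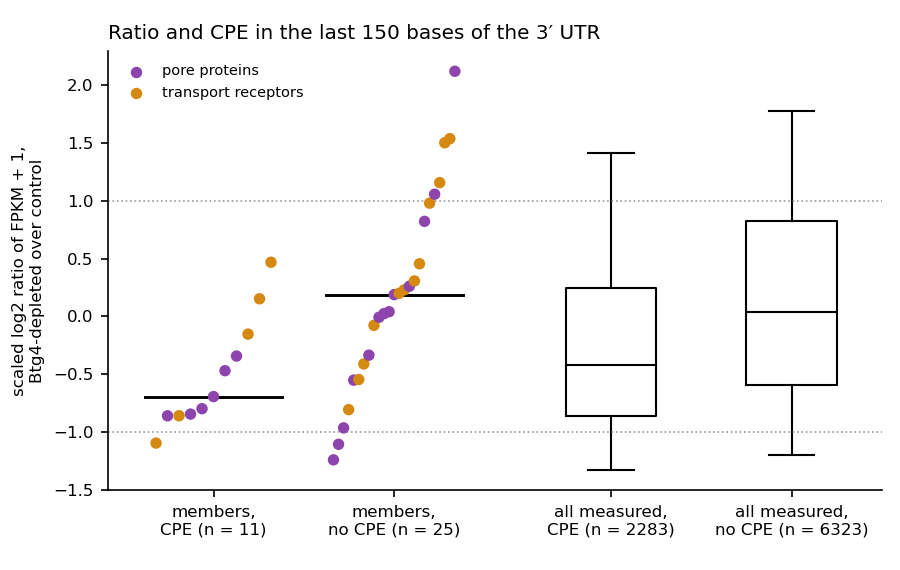
Scaled log2 ratio of FPKM + 1, dividing *Btg4*-depleted by control levels, of members with (n = 11) and without (n = 25) a CPE in the last 150 bases of the 3′ UTR, with black bars at the medians (-0.69 and 0.19), beside box plots of all measured genes split in the same way (box, 25th to 75th percentile; line, median; whiskers, 5th and 95th percentile). No member with a CPE lies above the upper dotted line at 2-fold, and the medians of all genes stand in the same order (-0.42 and 0.04).

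The genes that drive the receptors were taken from a list of the Ran cycle, of which 7 were measured, with 2 at least 2-fold higher (28.6%, against 19.5% over all genes), 2 at least 2-fold lower (28.6%, against 11.4%) and a median of 0.39. *Ran* itself was at 44.4 FPKM in *Btg4*-depleted and 70.2 FPKM in control oocytes (log2 ratio -0.49). *Rcc1*, which loads Ran with GTP on chromatin, was at 6.11 and 35.3 FPKM in *Btg4*-depleted and control oocytes (4.61-fold lower), and *Rangap1*, which triggers GTP hydrolysis in the cytoplasm, was at 2.203 and 6.54 FPKM (2.15-fold lower). On the other side, *Ranbp1*, a cofactor of RANGAP1, was at 109 FPKM in *Btg4*-depleted and 33.5 FPKM in control oocytes (3.57-fold higher), and *Ranbp3*, a cofactor of XPO1, was at 65.0 and 26.1 FPKM (2.72-fold higher). *Ranbp2*, another protein that binds Ran, was among the lower pore proteins above.

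Reads of 5 measured members can be confused with other genes at over 20% of their 100-base stretches. Besides *Kpna2* and *Nup35* these were *Nupl1* (69.8%, shared with *Mir719* and the annotation named *Nupl1*, since the transcript matched to this gene by identifier and length carries the GENCODE name *Gm49336*), *Ipo4* (59.0%, *Gm49378*) and *Tnpo1* (20.9%, *Gm6493*), and the remaining members shared at most 9.62%. Exons of *Nup133* overlap annotated genes on the opposite strand (*Gm29773* and *Gm45890*) over 729 bases, and without strand in the counting the reads of that stretch cannot be assigned. Leaving out the 5 members, as an alternative chosen after seeing the data, left 3 of 19 pore proteins and 3 of 17 receptors at least 2-fold higher, and 2 and 1 at least 2-fold lower. The shares over all measured genes were 19.5% higher and 11.4% lower.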

How the data were processed

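Poly(A)-primed cDNA was sequenced from 3 *Btg4*-depleted and 3 control libraries. BWA and mm9 stand in the processing notes of the submitters. The counting program is not given in the sources used here, nor is its annotation. The authors deposited the mean FPKM of each group for 15707 genes, with no values of single libraries. From the authors' DESeq2 lists, the mean normalized count over all libraries (a signal per gene) was used, only to estimate depth (7.82 M fragments per library). The log2 ratios, probabilities, p-values and differences of the authors' own DESeq2 and NOISeq comparisons, and membership of their lists, were not used.

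Group means were scaled by TMM (30% of ratios and 5% of levels trimmed), and log2 ratios of FPKM + 1 were taken over genes averaging at least 1 FPKM. No test was possible on group means, and the limma fit planned for single libraries was not run. The code was tested on simulated data. Members averaging at least 1 FPKM are named with both means, lower ones as low; genes of other lists are named at 2-fold or more or for the core of the Ran cycle (*Ran*, *Rcc1*, *Rangap1*, *Ranbp1*). *Sec13*, *Ahctf1* and *Seh1l*, which complete the Y-complex, and *Has2* are outside this rule and were chosen after their values were seen. Members and lists were chosen with earlier results of these data known. Alternatives were other scalings, pseudocounts of 0.1 and 0.5, other filters, a fold of 1.5 and removal of a loess trend on length (span 30%). GENCODE M21 transcripts (GRCm38) closest to the deposited length were matched for 96.3% of measured genes and 44 of 45 members, and 33 of 41 measured members matched within 5% of length. The others were *Nup35*, *Nup98*, *Nup155*, *Nup214*, *Ipo4*, *Ipo7*, *Tnpo1* and *Xpo5*. The tools were matplotlib 3.10.9, statsmodels 0.14.6, scipy 1.17.1, pandas 2.3.3 and numpy 2.4.6 under Python 3.11.15.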

Additional observations from a re-analysis of the deposited data

How the results depend on the processing

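The median log2 ratio of pore proteins (-0.34) was below 0 under every alternative run. It was -0.24 with no filter on low values, -0.50 with no scaling, -0.46 with quantile normalization and -0.47 with the pore proteins of other symbols, an alternative chosen after seeing the data. The median of the receptors (0.18) was 0.35 with the length trend removed, 0.040 with no scaling and -0.058 at a minimum of 5 FPKM. The pore minus receptor difference (-0.52) was -0.78 with the length trend removed, -0.33 at a minimum of 5 FPKM, -0.37 with no filter and -0.68 with the genes of other symbols. The 3 members at least 2-fold lower became 11 at a fold of 1.5, 1 with no filter, 6 with no scaling and 5 with a pseudocount of 0.1. In the same order, the lower share over all genes was 28.2%, 5.28%, 16.8% and 16.1%, against 11.4% in the main setting. The 7 members at least 2-fold higher became 9, 8, 6 and 9 in that order. The higher share over all genes was 30.5%, 14.8%, 16.2% and 23.2%, against 19.5%. Of the 10 members past 2-fold, 8 to 10 were kept under each scaling, pseudocount and length alternative and with no filter, and 7 of the 7 still measured at a minimum of 5 FPKM. *Ipo5* was lost with no filter or with the length trend removed, *Nup107* with no filter, *Nup43* with the length trend removed, and *Nup155* with no scaling or quantile normalization. None of the 10 changed sign. Members that came past 2-fold were *Nup210*, *Nup37*, *Xpo5* and *Xpo7* with the length trend removed, *Ipo8*, *Nup153* and *Nup62* with no scaling, *Nup153* with quantile normalization, *Xpo5* with no filter, *Nup210* and *Xpo5* with a pseudocount of 0.5, and these with *Nup153* and *Nup205* with one of 0.1.

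No paired analysis was possible because the table holds group means only, and leaving out a replicate could not be run for the same reason. The spread between libraries is therefore unknown, and a 2-fold difference here carries no error. Depth limits *Nupl2*, *Ipo7*, *Ipo13*, *Tnpo3* and *Nup210*, each with under 50 estimated fragments per library in at least one group, and the 4 members under 1 FPKM.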

Other observations

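Genes that export mRNA through the pore, a neighbouring list of 16 measured genes, had a median log2 ratio of -0.55. Of these, 4 were at least 2-fold higher (25%, against 19.5% over all measured genes) and 1 at least 2-fold lower (6.25%, against 11.4%). *Nxf1*, the main mRNA export receptor, was at 49.1 FPKM in *Btg4*-depleted and 10.2 FPKM in control oocytes (4.96-fold higher). The other 3 higher genes were *Ddx39b* at 54.95 and 15.1 FPKM in *Btg4*-depleted and control oocytes, *Alyref* at 19.5 and 5.70 FPKM, and *Thoc5* at 13.9 and 3.24 FPKM, while 10 of the 16 had log2 ratios below 0. *Thoc7*, a subunit of the same THO complex as *Thoc5*, was lower, at 12.0 and 34.5 FPKM in *Btg4*-depleted and control oocytes. Of 9 measured genes of the nuclear lamina and inner membrane none was at least 2-fold higher (19.5% over all measured genes). At least 2-fold lower were 2 (22.2%, against 11.4%), *Lmnb1* at 0.627 and 2.75 FPKM and *Syne2* at 24.7 and 56.8 FPKM in *Btg4*-depleted and control oocytes. *Lmnb1* reached the limit for measured genes only through the control group. The list's median log2 ratio was -0.20.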
